A study of Mus musculus with 12 samples.

Results

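The effect of busulfan on the liver of mice that also received L.J. was read by comparing the livers given busulfan plus L.J. with those given L.J. without busulfan. A gene was taken into the comparison if at least 3 of these 6 libraries held 1 FPKM of it or more, which 10538 of the 21004 genes in the table did. FPKM scale the fragments of a gene by its transcript length and by the library's total. Close to that limit, the third highest of the 6 values lay between 1 and 1.1 FPKM for 160 genes inside it, and between 0.9 and 1 FPKM for 196 genes outside it.

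Total RNA was taken from frozen liver of ICR mice, an outbred strain, at 8 weeks of age, and 12 libraries were sequenced in 4 groups of 3. The L.J. group received L.J. at 10 mg/kg, and the combined group received busulfan and L.J. at the same 10 mg/kg. The other two groups were a control and busulfan alone. The labels do not spell out L.J., the dose of busulfan or the sex of the mice, and the design text speaks of FMT without saying how it relates to L.J. Nothing states that the 3 libraries of a group came from separate mice, so p-values measure the spread between libraries within groups. In the main test of single genes that spread was pooled over all 4 groups, control and busulfan included.

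Busulfan is an alkylating drug that crosslinks DNA and depletes the stem cells of bone marrow and testis. Hepatocytes, which make up most of the liver's mass, secrete plasma proteins and clear drugs through oxidation and conjugation. Inflammatory cytokines, chiefly IL-6, make hepatocytes secrete acute-phase proteins. The rhythm of growth hormone in the blood, pulsed in males and steadier in females, sets the sex-biased genes of mouse liver.

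The L.J. libraries differed among themselves more than those of the combined group. Across the genes compared, L.J. replicate 2 had Pearson correlations of 0.983 to 0.986 with the combined libraries, but of 0.952 with L.J. replicate 1 and 0.942 with L.J. replicate 3. The 3 combined libraries correlated at 0.987 with each other. The labels place replicate 2 in the L.J. group and it is used so throughout, but whether that label is right was not tested, and every fold change below rests on it. The 21 genes of the major urinary proteins (Mup) held 1.36%, 23.9% and 0.0956% of all FPKM in L.J. replicates 1, 2 and 3, and 36.7%, 16.8% and 19.7% in the combined group. That share did not separate the groups in an exact two-sided permutation test (p = 0.3, where 3 against 3 libraries allow 0.1 at the smallest). The depth of the libraries is unknown. All 20 hepatocyte markers were among the genes compared, and albumin (Alb) read 16134 to 32491 FPKM with L.J. and 24143 to 40506 in the combined group.

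Few single genes passed the test, while several gene groups stood apart by many-fold in L.J. replicates 1 and 3. Adding busulfan to L.J. went with a rise of Ndrg1, a stress-responsive gene, and with falls of B3galt1, which builds galactose onto glycans, and of Sult3a1, a sulfotransferase that female liver makes more of. Acute-phase proteins and female-biased genes read lower in the combined group than with L.J. alone, and Mup and other male-biased genes read higher, and of these genes Sult3a1 alone passed. In these groups L.J. replicate 2 lay closer to the combined libraries than replicates 1 and 3 did. The acute-phase proteins compared summed to 22265 to 27027 FPKM in control, 22818 to 25348 with busulfan and 22555 to 27084 in the combined group. In L.J. replicates 1, 2 and 3 they summed to 78799, 27589 and 70723. The Mup share of all FPKM was 11.7% to 35.4% in control and 19.4% to 30.8% with busulfan. In both measures L.J. replicates 1 and 3 were the libraries that stood apart.

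Limma called 3 of 10538 genes at an adjusted p under 0.05, a share of 0.0285%, and 3 of all 10786 genes tested, 0.0278%. Of these 1 rose (0.00949% of the genes compared) and 2 fell (0.019%), against 1 and 0 after median scaling, quantile normalization, or leaving out the Mup genes and rescaling. At an unadjusted p under 0.05, 305 genes (2.89%) read higher and 1136 (10.8%) lower. Every combined library lay above every L.J. library in 309 genes (2.93%) and below in 1056 (10.0%). The median log2 fold change over all genes was -0.13, with 7894 genes (74.9%) below 0. That median was -0.02 after median scaling, 0.00 after quantile normalization and -0.03 with the Mup genes left out. The list medians below are to be read against -0.13, and the counts of members lower or higher against 74.9% and 25.1% of all genes.

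**Figure D1:**
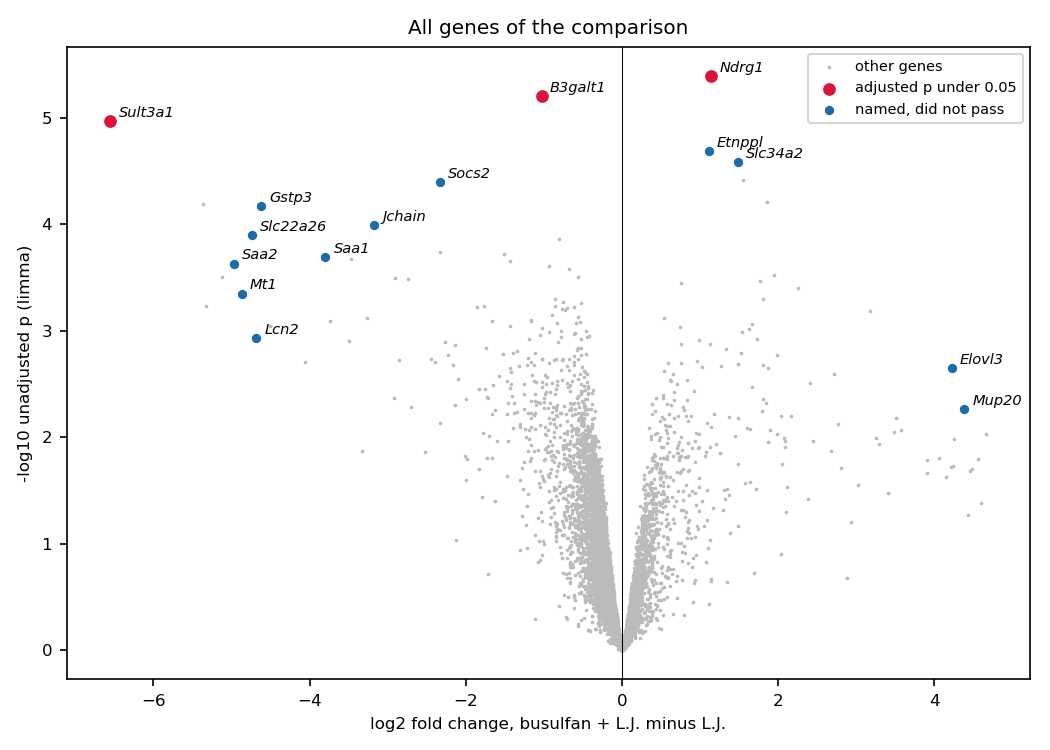
Each point is one of the genes compared, with the log2 fold change on the horizontal axis (combined group minus L.J.) and -log10 of the unadjusted limma p on the vertical axis. The 3 red genes (Ndrg1, B3galt1, Sult3a1) passed an adjusted p of 0.05, and the blue genes are named in the text and did not pass.

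Ndrg1 (gene ID 17988, chromosome 15, 66929318 to 66969641 on mm10) stood at 4.64, 5.82 and 5.42 FPKM with L.J. and at 10.5, 14.7 and 13.7 in the combined group, in the order of replicates 1, 2 and 3 that all triplets below keep. Every combined library lay above every L.J. library. The gene rose by 1.14 on the log2 scale (SE 0.14, adjusted p = 0.0338). The control libraries read 12.8, 10.6 and 13.3 and the busulfan libraries 11.7, 9.93 and 10.6, so the L.J. group was the low one of the 4.

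B3galt1 (gene ID 26877, chromosome 2, 67565689 to 68122882) read 13.3, 14.2 and 11.1 with L.J. and 5.47, 5.6 and 6.20 in the combined group. The libraries of each group lay close together, and the groups did not overlap. The gene fell by 1.03 on the log2 scale (SE 0.13, adjusted p = 0.0338). Its means were 6.99 in control and 7.11 with busulfan, close to the combined mean of 5.76 ± 0.389 (SD, n = 3).

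Sult3a1 (gene ID 57430, chromosome 10, 33851020 to 33879475) read 60.2, 56.0 and 901 with L.J., while in the combined group it was listed at 0 in replicate 1 and read 0.22 and 2.14 in replicates 2 and 3. All L.J. libraries were high, replicate 3 far above the other two. Among the combined libraries only replicate 3 reached 1 FPKM. Sult3a1 thus entered the comparison through the L.J. libraries, where it is high, so its separation is no support. The log2 fold change, on log2(FPKM + 1), was -6.55 (SE 0.89, adjusted p = 0.038). Its neighbour in the family, Sult3a2, read 6.31, 21.1 and 370 with L.J. and 0, 0.08 and 0.32 in the combined group (adjusted p = 0.136). Sult3a2 entered the comparison through the L.J. libraries alone, where it is high, so its separation is no support. The longest coding transcripts of the pair were 71.7% identical, and how reads were split between them is not known.

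None of the 3 genes passed in every fit that left out 1 library. Their largest adjusted p was 0.113 for Ndrg1 without L.J. replicate 1, 0.285 for B3galt1 without combined replicate 1 and 0.396 for Sult3a1 without combined replicate 1. Over median scaling, quantile normalization and leaving out the Mup genes, the adjusted p ran from 0.0998 to 0.104 for B3galt1 and from 0.0794 to 0.0981 for Sult3a1. In limma on the 6 compared libraries alone, the adjusted p was 0.15 for Ndrg1, 0.136 for B3galt1 and 0.188 for Sult3a1.

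The 2 genes next in order of p did not pass. Etnppl, which breaks down phosphoethanolamine (gene ID 71760, chromosome 3, 130617448 to 130635750), stood at 13.4, 16.5 and 17.3 with L.J. and 38.7, 38.3 and 28.7 in the combined group (log2 fold change 1.11, SE 0.16, adjusted p = 0.0547). Slc34a2, which takes up phosphate with sodium (gene ID 20531, chromosome 5, 53049353 to 53071664), stood at 0.63, 1.27 and 0.37 with L.J. and at 4.36, 2.43 and 4.97 in the combined group (log2 fold change 1.48, SE 0.22, adjusted p = 0.0563). Neither gene's groups overlapped. Among the L.J. libraries only replicate 2 reached 1 FPKM of Slc34a2. That gene entered the comparison through the combined libraries, where it is high, so its separation is no support. Etnppl was near its control mean of 38.4 in the combined group, whereas Slc34a2 lay above its means of 0.58 in control and 0.833 with busulfan.

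**Figure D2:**
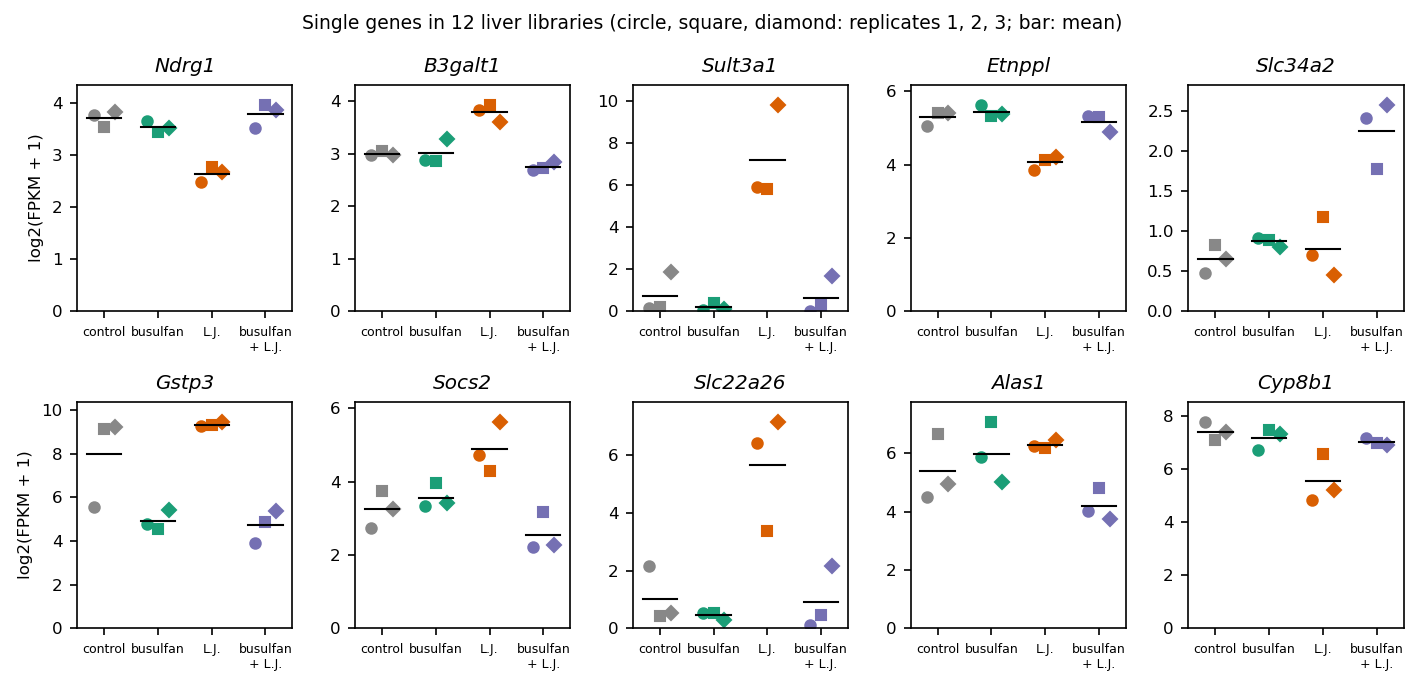
Values of 10 genes on log2(FPKM + 1) in all 12 libraries, with symbols for replicates 1, 2 and 3 and a bar at the group mean. Ndrg1, Etnppl and B3galt1 were even within the L.J. group, whereas Sult3a1 and Slc22a26 differed between its libraries. Gstp3 was high in all 3 L.J. libraries and in 2 of the 3 control libraries.

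The count of genes past the threshold rested on 1 library. Without L.J. replicate 2, limma called 246 genes higher and 918 lower over all genes tested, and 243 (2.31%) and 901 (8.55%) among those compared. With library weights, which gave L.J. replicate 2 a weight of 0.25, the counts over all genes tested were 604 and 1996 (593 and 1960 among the genes compared, 5.63% and 18.6%). With L.J. replicates 1 and 3 both left out, so that L.J. replicate 2 stood alone for its group and was assumed to vary like the other groups, they were 0 and 2 (0.019%). Leaving out any other single library of the 6 gave 0 to 2 higher and 0 to 4 lower.

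**Figure D3:**
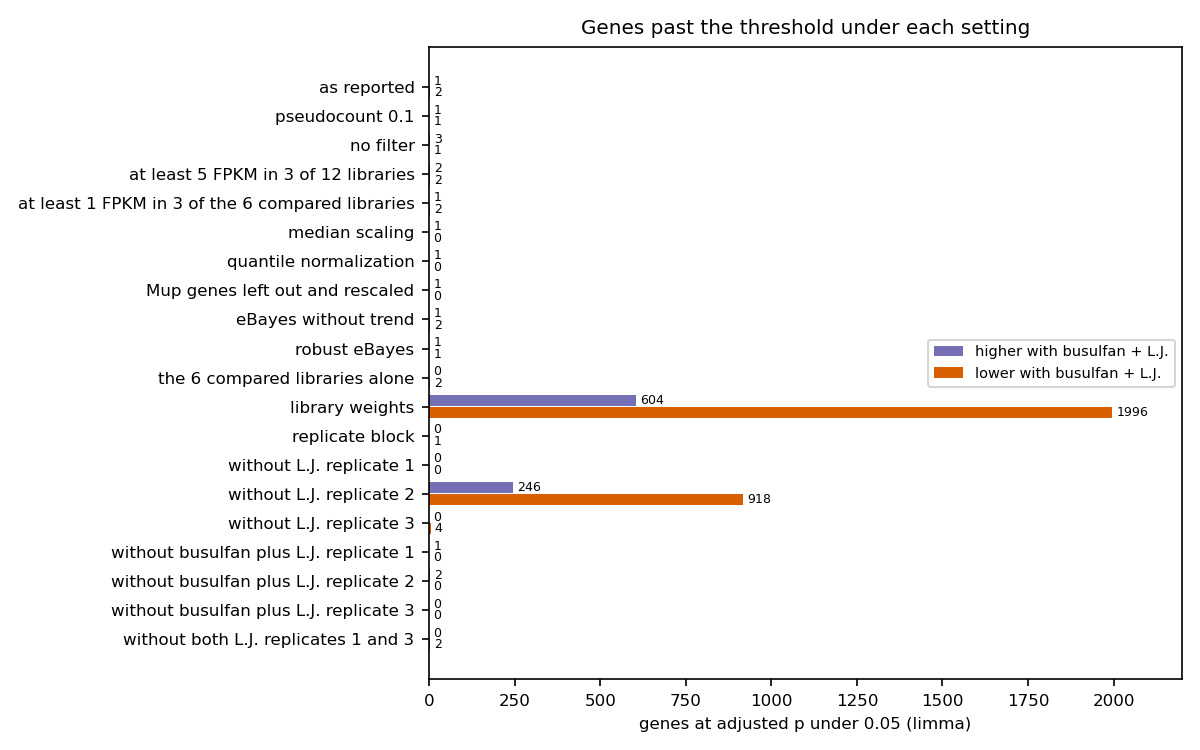
Bars count the genes at an adjusted limma p under 0.05 under each setting, over all genes tested in that setting, higher or lower in the combined group. The bars without L.J. replicate 2 (246 and 918) and with library weights (604 and 1996) stand far above the rest, which reach 4 at most.

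The gene lists differed in how far L.J. replicate 2 went with L.J. replicates 1 and 3. The medians below are log2 fold changes of the combined group over L.J., given with all libraries and, for most lists, with L.J. represented by replicates 1 and 3 or by replicate 2 alone. Over all genes compared these were -0.13, -0.20 and 0.01.

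**Figure D4:**
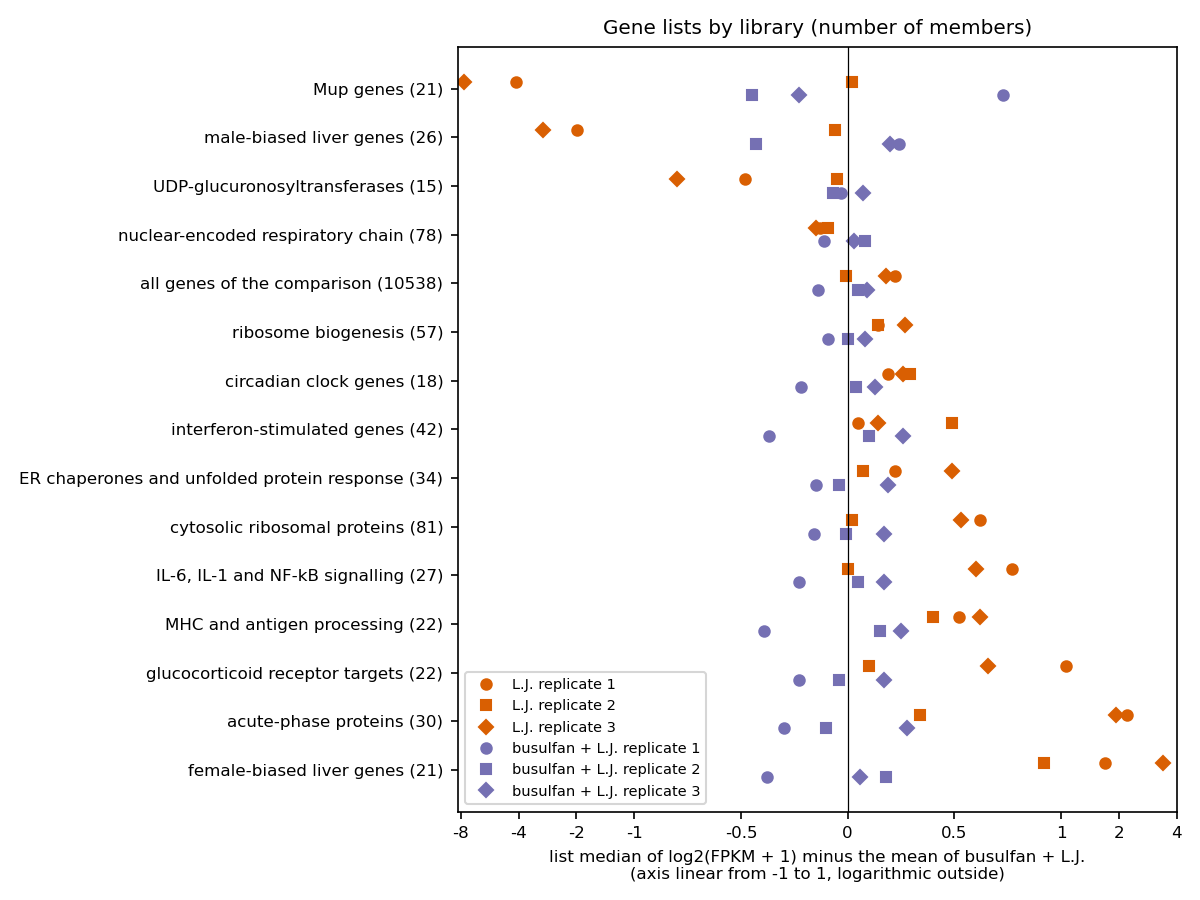
Each point is 1 library, placed at the list's median of log2(FPKM + 1) minus the mean of the combined group, with the number of list members in brackets. For Mup and male-biased genes L.J. replicates 1 and 3 stand far to the left while replicate 2 sits at 0.02 and -0.06, and for MHC genes all 3 L.J. libraries (0.40 to 0.62) stand right of all combined libraries (-0.39 to 0.25).

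Of 30 acute-phase proteins compared, 28 read lower in the combined group and 0 passed. Their median was -1.52, or -1.39 relative to all genes, and it was -2.16 from L.J. replicates 1 and 3 and -0.34 from replicate 2. In 17 members, 56.7%, the combined group lay entirely below L.J., beside 10.0% of all genes. Without L.J. replicate 2, 27 members passed downward and 1 upward, in a fit that called 8.55% of all genes lower and 2.31% higher. L.J. replicate 2 was the L.J. library nearest the combined group in this list. Leaving it out favours such calls, so they are no support. The summed neutrophil markers were also lowest in replicate 2 among the L.J. libraries, with 546, 168 and 468 FPKM, and their part here was not tested.

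Serum amyloid A, which circulates on HDL during inflammation, led the list by p. Saa1 read 4454, 468 and 4030 with L.J. and 92.2, 121 and 272 in the combined group, a log2 fold change of -3.80 (SE 0.72, adjusted p = 0.131). Saa2 read 4327, 343 and 3626 against 18.7, 42.1 and 204 (log2 fold change -4.97, SE 0.95, adjusted p = 0.131). The groups did not overlap in either gene, and L.J. replicate 2 lay between the other L.J. libraries and the combined ones. Means without L.J. were 62.1 and 39.9 in control and 106 and 54.1 with busulfan.

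The longest coding transcripts of Saa1 and Saa2 were 87.3% identical, so reads may have been split between them. Their promoters, from 250 bases before to 50 after the start (RefSeq, GRCm38.p6), were 95.3% identical and are shown because the pair had like values. The reference is of an inbred strain other than ICR. Capitals mark matches, on both strands, to the C/EBP-type motif TTGCNNAA and to the kB-type motif GGNNNTTTC. The first occurs in 10.8% and the second in 15.2% of 32817 mouse promoters of this length, and the motifs were chosen after these sequences were seen.
Saa1, chr7:46742931-46743230, minus strand: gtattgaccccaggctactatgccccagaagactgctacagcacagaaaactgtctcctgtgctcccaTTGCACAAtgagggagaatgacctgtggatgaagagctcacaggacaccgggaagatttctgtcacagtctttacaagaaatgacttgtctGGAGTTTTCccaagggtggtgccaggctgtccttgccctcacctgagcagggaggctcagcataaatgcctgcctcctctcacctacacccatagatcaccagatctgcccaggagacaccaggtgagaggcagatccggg
Saa2, chr7:46751583-46751882, plus strand: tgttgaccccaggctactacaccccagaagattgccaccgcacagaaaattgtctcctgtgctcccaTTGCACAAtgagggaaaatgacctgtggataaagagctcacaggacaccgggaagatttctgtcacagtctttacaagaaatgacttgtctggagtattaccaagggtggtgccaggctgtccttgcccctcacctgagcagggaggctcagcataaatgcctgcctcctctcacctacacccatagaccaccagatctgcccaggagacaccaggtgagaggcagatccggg
Both promoters hold 1 match to the C/EBP-type motif. The kB-type letters are found once in Saa1 and are not in this window of Saa2.

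Metallothioneins, which bind zinc and copper, followed the same order of libraries. Mt1 read 2466, 97.9 and 1343 with L.J. and 7.50, 19.7 and 74.1 in the combined group (log2 fold change -4.87, SE 1.01, adjusted p = 0.16). Mt2 read 1576, 57.4 and 926 against 1.88, 7.84 and 50.9 (log2 fold change -5.33, SE 1.14, adjusted p = 0.163). For both genes the lowest L.J. library, replicate 2, still lay above the highest combined library, replicate 3. The importer of zinc and iron Slc39a14 (Zip14) read 80.1, 26.7 and 82.6 against 18.3, 23.03 and 23.5.

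The same window of both metallothionein promoters is shown with the core of the metal response element in capitals, as TGCACNC or TGCGCNC on either strand. These cores occur in 12.6% and 15.4% of the promoters.
Mt1, chr8:94178839-94179138, plus strand: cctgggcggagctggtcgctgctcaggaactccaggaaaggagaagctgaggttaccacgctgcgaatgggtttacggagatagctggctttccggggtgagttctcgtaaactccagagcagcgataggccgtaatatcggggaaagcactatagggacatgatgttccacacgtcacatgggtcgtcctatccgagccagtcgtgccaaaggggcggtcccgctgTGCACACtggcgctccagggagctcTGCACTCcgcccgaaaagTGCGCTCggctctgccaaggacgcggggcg
Mt2, chr8:94172368-94172667, plus strand: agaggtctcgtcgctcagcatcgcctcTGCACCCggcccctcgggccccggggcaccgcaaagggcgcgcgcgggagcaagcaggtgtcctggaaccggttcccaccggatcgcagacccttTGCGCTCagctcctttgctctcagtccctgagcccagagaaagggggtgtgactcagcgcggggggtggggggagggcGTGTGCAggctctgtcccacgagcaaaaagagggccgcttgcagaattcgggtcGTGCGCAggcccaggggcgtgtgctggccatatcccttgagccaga
Mt1 holds 3 such cores and Mt2 holds 4. As many as 3 are found in 1.97% and as many as 4 in 0.518% of all promoters of this length.

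Other secreted proteins of the list were also lowest, among the L.J. libraries, in replicate 2. Lcn2, which binds bacterial siderophores, read 1410, 65.5 and 912 with L.J. and 3.85, 15.6 and 62.3 in the combined group. Fgl1, a fibrinogen-like hepatokine, read 1740, 350 and 2045 against 100.2, 124 and 233. Haptoglobin (Hp), which captures free haemoglobin, read 6873, 1023 and 3964 against 611, 924 and 1215, and here L.J. replicate 2 lay within the combined range.

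Of the 27 genes of IL-6, IL-1 and NF-kB signalling, 24 read lower in the combined group, with a median of -0.50 (-0.37 relative to all genes). The median was -0.71 from L.J. replicates 1 and 3 and 0.00 from replicate 2, and in 3 members, 11.1%, the combined group lay entirely below L.J., about the 10.0% of all genes. Nfkbia, the inhibitor that NF-kB induces against itself, read 39.5, 17.3 and 29.4 with L.J. and 11.5, 11.5 and 15.3 in the combined group (log2 fold change -1.05, SE 0.24, adjusted p = 0.172). Its L.J. values were all above the combined ones, while those of Icam1, an adhesion molecule (15.0, 6.26 and 12.5 against 3.62, 4.46 and 6.46), overlapped.

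Complement and coagulation genes were mixed. The third complement component C3, on which the pathways of complement converge, read 5572, 1802 and 4363 with L.J. and 1374, 1689 and 1684 in the combined group, without overlap (adjusted p = 0.243). The median of the 26 complement genes was -0.15, close to that of all genes. Coagulation and fibrinolysis genes had a median of -0.33 (-0.21 relative to all genes, -0.50 from L.J. replicates 1 and 3 and -0.05 from replicate 2). In this list 16 of 22 read lower, 72.7% beside 74.9% of all genes. Kng1, the precursor of bradykinin, read 2986, 1163 and 2536 against 796, 888 and 1019. Serpina5, an inhibitor of protein C, went the other way with 0.96, 0.86 and 0.33 against 1.57, 2.22 and 1.87 (log2 fold change 0.76, SE 0.15, adjusted p = 0.137). Serpina5 entered the comparison through the combined libraries alone, where it is high, so its separation is no support.

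Iron and heme genes had a median of -0.47 over 20 members (-0.34 relative to all genes), -0.81 from L.J. replicates 1 and 3 and 0.04 from replicate 2. Hemopexin (Hpx), which carries heme, read 8995, 1731 and 4788 with L.J. and 965, 1415 and 1694 in the combined group. Alas1, the rate-limiting enzyme of heme synthesis, did not share that split, with 74.7, 72.3 and 86.1 against 15.3, 26.9 and 12.4. Its 3 L.J. libraries were even and all far above the combined ones (log2 fold change -2.10, SE 0.56, adjusted p = 0.202), and its means were 50.8 in control and 73.7 with busulfan.

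The 21 Mup genes, which encode secreted pheromone carriers of male mice, all read higher in the combined group, with a median log2 fold change of 4.06. From L.J. replicates 1 and 3 alone the median was 5.96, and from L.J. replicate 2 it was -0.02. Mup20, known as darcin, read 95.2, 1641 and 13.9 with L.J. and 4313, 1363 and 3618 in the combined group (log2 fold change 4.38, SE 1.29, adjusted p = 0.222). The groups overlapped, since L.J. replicate 2 lay above combined replicate 2, and they overlapped in 19 of the 21 genes. Mup genes are nearly identical, so the split of reads among them is uncertain.

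All 26 male-biased liver genes outside the Mup family read higher in the combined group, and their median was 1.58. It was 2.47 from L.J. replicates 1 and 3, where 22 members passed beside 2.31% of all genes, and 0.06 from L.J. replicate 2. Leaving out L.J. replicate 2, the L.J. library nearest the combined group in this list, favours such calls, so they are no support. Elovl3, which elongates very long fatty acids, read 4.11, 56.1 and 0.14 with L.J. and 175, 72.2 and 168 in the combined group (log2 fold change 4.22, SE 1.09, adjusted p = 0.185). Cyp2d9, a male steroid hydroxylase, read 292, 503 and 57.8 against 547, 491 and 561, and L.J. replicate 2 lay inside the combined range. In 5 members, 19.2%, among them Elovl3, Susd4 and Cyp2u1, the combined group lay entirely above L.J., beside 2.93% of all genes.

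Of 21 female-biased genes, 20 read lower in the combined group, and the median was -1.86 (-1.74 relative to all genes). Here L.J. replicate 2 went with the other L.J. libraries in part, since the median was -2.47 from replicates 1 and 3 and -0.92 from replicate 2. In 12 members, 57.1%, the combined group lay entirely below L.J., beside 10.0% of all genes, and 1 member, Sult3a1, fell, beside 0.019% of all genes. Some members, such as Cyp2b13, entered the comparison through the L.J. libraries alone, where they are high, so these shares support nothing.

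Slc22a26, an organic anion transporter, read 85.7, 9.40 and 141 with L.J. and 0.09, 0.37 and 3.49 in the combined group. Cyp2b13 read 17.9, 2.96 and 47.4, and in the combined group it was listed at 0 in replicate 1 and read 0.48 and 0.79 in the others. For both genes the order of the L.J. libraries was the same, with replicate 3 highest and replicate 2 lowest. The busulfan and control means lay near the combined level, at 0.373 and 1.41 for Slc22a26 and at 0.343 and 0.337 for Cyp2b13.

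Genes of growth hormone signalling and its feedback had a median of -0.15 over 18 members, near that of all genes (-0.26 from L.J. replicates 1 and 3 and 0.01 from replicate 2). Socs2, which STAT5 induces and which damps the receptor, read 25.3, 18.8 and 48.2 with L.J. and 3.62, 8.01 and 3.80 in the combined group (log2 fold change -2.33, SE 0.37, adjusted p = 0.0617). The groups did not overlap, and the control and busulfan means of 8.86 and 11.1 lay between them. Bcl6, a repressor that is higher in male liver, read 2.56, 5.94 and 2.38 against 26.1, 6.11 and 31.5. Igf1, the growth factor that growth hormone drives, did not separate, with 106, 131 and 120.02 against 120.5, 122 and 117 (log2 fold change 0.02, SE 0.13, adjusted p = 0.959).

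**Figure D5:**
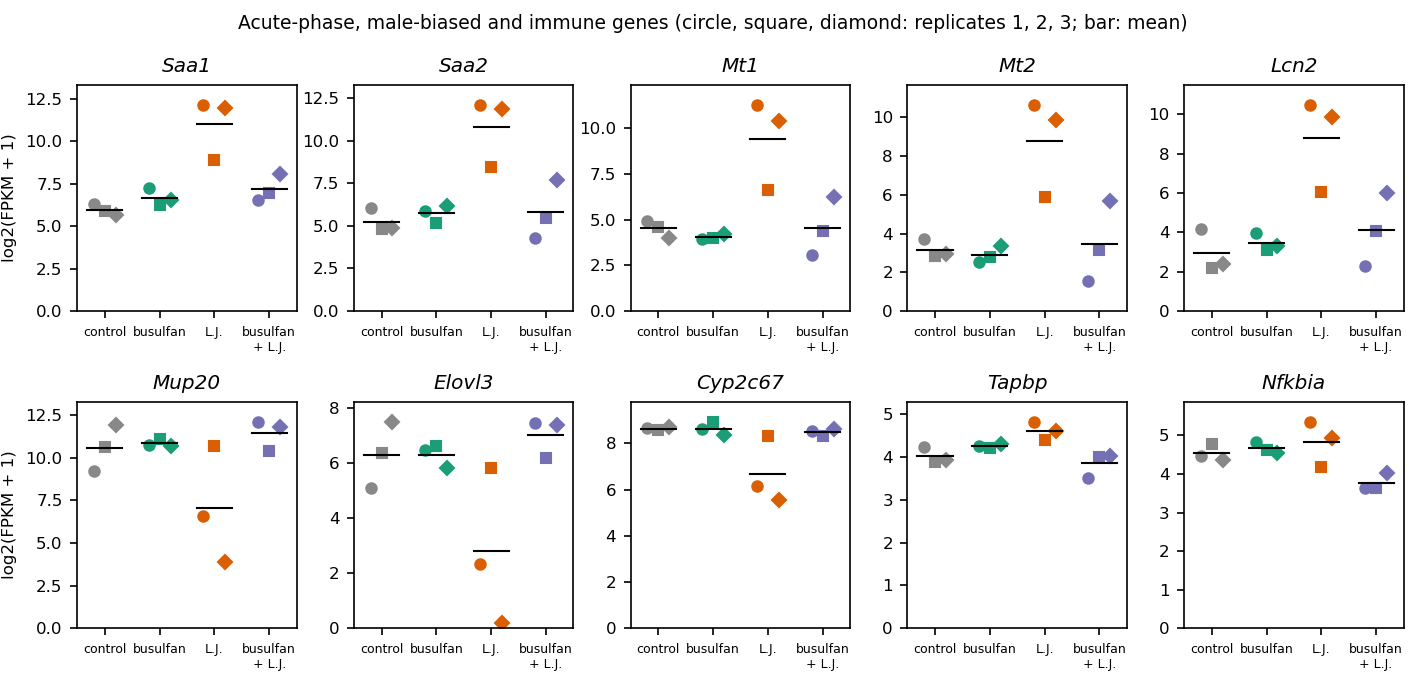
Values of 10 genes on log2(FPKM + 1) in all 12 libraries, with symbols for replicates 1, 2 and 3 and a bar at the group mean. For Saa1, Saa2, Mt1, Mt2 and Lcn2 the 3 L.J. libraries lie above all combined ones, with L.J. replicate 2 lowest among them, and for Mup20, Elovl3 and Cyp2c67 L.J. replicates 1 and 3 lie far below the rest.

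Enzymes of drug clearance differed in both directions within each family. Among pi-class glutathione transferases, Gstp3 read 611, 630 and 689 with L.J. and 13.9, 27.9 and 40.5 in the combined group (log2 fold change -4.62, SE 0.77, adjusted p = 0.0723). All 3 L.J. libraries were high and close to each other. With busulfan alone it read 26.6, 22.3 and 41.7, as low as in the combined group, whereas the controls read 46.7, 550 and 599. Gstp1 lay the other way, with 968, 2529 and 392 against 3315, 2528 and 4748, and the longest coding transcripts of the pair were 62.8% identical.

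Of the 33 genes of cytochrome P450 family 2, 15 read higher and 18 lower, with a median of -0.07. Cyp2c39 read 354, 72.1 and 461 with L.J. and 35.6, 61.6 and 35.7 in the combined group, while the related Cyp2c67 read 70.9, 318 and 46.4 against 372, 321 and 387. Neither passed, with adjusted p-values of 0.184 and 0.22. Cyp1a2, which clears caffeine, read 164, 296 and 175 against 341, 360 and 396, without overlap. Reads of these subfamilies may have been shared among near copies.

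UDP-glucuronosyltransferases, which add glucuronic acid, read higher in 13 of 15 cases (median 0.49, and 0.05 from L.J. replicate 2). Ugt3a1, which transfers N-acetylglucosamine instead, read 8.99, 48.3 and 9.55 with L.J. and 71.2, 85.7 and 49.9 in the combined group. Ugt1a1, which conjugates bilirubin and shares exons with the other Ugt1a genes, was 1 of the 2 that read lower, with 131, 90.0 and 132 against 48.5, 57.0 and 64.5 (log2 fold change -1.03, SE 0.23, adjusted p = 0.17). Among the 8 sulfotransferases, Sult2a8, which acts on bile acids, read 21.8, 218 and 22.5 against 303, 237 and 244.

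Bile acid genes had a median of -0.09 (-0.29 from L.J. replicates 1 and 3 and 0.12 from replicate 2), with 11 of 26 higher and 15 lower. Cyp7a1, the rate-limiting enzyme of bile acid synthesis, read 15.5, 13.4 and 42.6 with L.J. and 21.9, 26.2 and 14.2 in the combined group (log2 fold change -0.04, SE 0.56), and its sign changed with the scaling. Cyp8b1, which makes cholic acid, read 27.2, 93.7 and 36.2 against 142.6, 124 and 118, with every combined library above every L.J. library (log2 fold change 1.48, SE 0.37, adjusted p = 0.184). The uptake transporters differed, as Slco1a4 read 86.5, 13.5 and 55.1 against 5.48, 13.5 and 7.96, and Slco1a1 33.6, 218 and 25.1 against 225, 206 and 217.

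Targets of the glucocorticoid receptor had a median of -0.60 over 22 members (-0.47 relative to all genes), -0.83 from L.J. replicates 1 and 3 and -0.10 from replicate 2, and share Mt1, Mt2, Lcn2 and Per1 with other lists. Igfbp1, which binds insulin-like growth factors, read 172, 48.5 and 246 with L.J. and 16.3, 46.1 and 39.5 in the combined group. Pck1, which makes phosphoenolpyruvate for glucose synthesis, read 718, 344 and 1013 against 239, 214 and 235 (log2 fold change -1.46, SE 0.48, adjusted p = 0.251). In both genes the combined group lay below all L.J. libraries. Tdo2, which opens the breakdown of tryptophan, was higher in the combined group instead, with 373, 403 and 346 against 601, 499 and 667.

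The clock list had a median of -0.20 over 18 members (-0.08 relative to all genes), -0.15 from L.J. replicates 1 and 3 and -0.29 from replicate 2. In 5 members, 27.8%, the combined group lay entirely below L.J., beside 10.0% of all genes. Per1, a repressor of the clock, read 14.5, 6.04 and 21.4 with L.J. and 1.44, 1.5 and 2.87 in the combined group (log2 fold change -2.23, SE 0.55, adjusted p = 0.184). Nr1d1, the heme-binding repressor REV-ERBα, read 12.6, 5.21 and 42.5 against 3.64, 3.25 and 3.50, beside means of 57.9 in control and 26.3 with busulfan. The hour at which each liver was taken is not given in the labels.

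Fatty acid oxidation genes and targets of PPARA had a median of 0.07, with 20 of 34 higher. Acot1, a cytosolic acyl-CoA thioesterase with the near copy Acot2, read 0.79, 2.70 and 1.32 with L.J. and 4.24, 7.11 and 4.75 in the combined group (log2 fold change 1.33, SE 0.32, adjusted p = 0.184). Pdk4, which holds back glucose oxidation, read 2.63, 5.16 and 3.68 against 6.80, 8.95 and 9.57. Angptl4, an inhibitor of lipoprotein lipase, was low in both groups, with 8.92, 12.9 and 12.6 against 10.8, 9.37 and 11.9, beside means of 43.7 in control and 42.3 with busulfan. Its log2 fold change was -0.08 (SE 0.27, adjusted p = 0.898) and turned positive with the scaling.

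For genes of antigen presentation on MHC molecules, all L.J. libraries went together. Of these 22 genes, 20 read lower in the combined group, and the median was -0.55 (-0.42 relative to all genes, -0.66 from L.J. replicates 1 and 3 and -0.40 from replicate 2). The groups did not overlap in 12 members, 54.5%, all lower, beside 10.0% of all genes, and 0 passed. Without combined replicate 1 the median was -0.35. The list's summed FPKM overlapped, at 3159, 3844 and 4055 with L.J. and 2773, 3390 and 3821 in the combined group. Relative to the combined mean, its median per library was 0.52, 0.40 and 0.62 with L.J. and 0.47, -0.27 and 0.06 in control. Tapbp, which helps load peptides, read 27.0, 20.1 and 23.3 with L.J. and 10.4, 15.1 and 15.2 in the combined group (log2 fold change -0.76, SE 0.16, adjusted p = 0.163). Psmb10, of the immunoproteasome, read 16.2, 12.4 and 13.9 against 8.48, 8.28 and 9.66. The heavy chain H2-D1, which has near copies, read 577, 467 and 690 against 266, 381 and 416.

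Of 42 interferon-stimulated genes, 37 read lower, with a median of -0.23 (-0.11 relative to all genes). Here L.J. replicate 2 gave the larger difference, -0.49, against -0.13 from replicates 1 and 3. Without combined replicate 1 the median was -0.05, the same as over all genes in that fit. The combined group lay below L.J. in 4 members, 9.52%, about the share of all genes. Gbp7, a guanylate-binding protein, read 5.67, 4.61 and 6.17 with L.J. and 2.03, 3.19 and 2.75 in the combined group (log2 fold change -0.83, SE 0.19, adjusted p = 0.169). Zbp1, a sensor of left-handed nucleic acid, read 6.62, 8.53 and 7.21 against 2.41, 3.77 and 5.11.

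Genes tied to DNA lesions, through which busulfan acts, had medians close to that of all genes, and 0 passed. The 22 targets of p53 had a median of -0.17, which is -0.04 relative to all genes, and in 5 of them, 22.7%, the combined group lay entirely below L.J., beside 10.0% of all genes. From L.J. replicate 2 alone the median was -0.04. Cdkn1a, the cyclin-dependent kinase inhibitor p21, read 51.3, 22.5 and 33.9 with L.J. and 17.8, 18.4 and 27.8 in the combined group, with overlap (log2 fold change -0.68, SE 0.34, adjusted p = 0.39). Aen, a nuclease of p53-driven apoptosis, read 9.89, 9.06 and 8.68 against 6.58, 6.66 and 7.50, without overlap. Repair genes for crosslinks and alkylated bases had a median of -0.17 over 18 members. Of 14 cell cycle genes, 5 read higher and 9 lower, with a median of -0.07 that was 0.06 after quantile normalization.

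Of 81 cytosolic ribosomal protein genes, 79 read lower in the combined group, and the median was -0.40 (-0.27 relative to all genes). From L.J. replicate 2 alone the median was -0.02. Rpl21 read 87.6, 71.4 and 103 with L.J. and 52.1, 52.7 and 65.2 in the combined group. Factors of ribosome assembly read lower in 48 of 57, with a median of -0.19, which is -0.06 relative to all genes. In 17 of these, 29.8% beside 10.0% of all genes, the combined group lay entirely below L.J., as for Riok1, a kinase of small-subunit maturation, at 4.8, 3.16 and 5.16 against 2.35, 2.85 and 2.82, and for the nucleolar Gnl3 at 13.5, 16.6 and 18.2 against 11.6, 9.17 and 12.1.

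Nuclear-encoded genes of the respiratory chain read slightly higher in the combined group in 61 of 78 cases, and their median of 0.11 (0.24 relative to all genes) was 0.09 from L.J. replicate 2. The groups did not overlap in 10, 12.8%, all higher, beside 2.93% of all genes. Sdha, of complex II, read 111, 134 and 126 with L.J. and 141, 166 and 142 in the combined group (log2 fold change 0.27, SE 0.14, adjusted p = 0.409). Atp5k, a small subunit of ATP synthase, read 103, 160 and 141 against 167, 193 and 178.

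ER chaperone and unfolded protein response genes had a median of -0.28 (-0.15 relative to all genes), with 32 of 34 lower. It was -0.35 from L.J. replicates 1 and 3, -0.07 from replicate 2 and -0.14 without L.J. replicate 3. Xbp1, whose spliced form drives chaperone genes, read 112, 108 and 124 with L.J. and 68.9, 78.9 and 94.9 in the combined group, without overlap (log2 fold change -0.51, SE 0.17, adjusted p = 0.252). Heat shock proteins had a median of 0.12, which was -0.31 from L.J. replicate 2. Hspb1, a small chaperone, read 4.37, 17.0 and 1.28 against 16.6, 22.5 and 23.7, while the related Hspb8 read 125, 82.7 and 164 against 61.8, 63.8 and 74.9.

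Neutrophil markers and B and plasma cell markers were highest in L.J. replicates 1 and 3, the libraries high in acute-phase genes. Erythroid markers summed to 510, 1098 and 836 FPKM with L.J. Replicate 2 was highest among these, but control replicate 1 reached 2428. In bulk liver, fewer cells of a type and less RNA per cell cannot be told apart. The 20 neutrophil markers summed to 546, 168 and 468 FPKM with L.J. and to 34.8, 30.0 and 40.1 in the combined group. Of the L.J. sums, 382, 147 and 371 came from Wfdc21, a secreted protein. The neutrophil sum also varied without L.J., at 242 in control replicate 1, 25.7 in control replicate 3 and 150 in busulfan replicate 3. L.J. replicate 2 thus lay below control replicate 1. Granule genes were low, with Ngp at 17.6, 0.55 and 7.37 against 0.24, 0 and 0.68 and Elane at 1.62, 0 and 0.59 against 0.06, 0 and 0. The calgranulin S100a8 read 48.8, 1.73 and 25.1 against 0.61, 0.16 and 3.35.

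Jchain, which joins secreted antibodies, read 24.9, 3.35 and 26.7 with L.J. and 0.30, 0.39 and 1.39 in the combined group (log2 fold change -3.17, SE 0.55, adjusted p = 0.0992). It entered the comparison through the L.J. libraries, where it is high, so its separation is no support. B and plasma cell markers, 9 of them in the table, summed to 35.8, 9.37 and 39.5 against 4.50, 4.45 and 7.57. Kupffer cell and macrophage markers overlapped, at 486, 211 and 405 against 175, 313 and 407. Among them Marco, a scavenger receptor, read 29.4, 3.23 and 9.23 against 1.73, 4.01 and 6.52. The part of these cells in the differences of the acute-phase, MHC and signalling genes was not tested.

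Pancreatic enzymes were highest in combined replicate 2. The 21 exocrine markers summed to 47.1, 495 and 15.7 in the combined group and to 5.01, 9.76 and 2.25 with L.J. Amylase (Amy2a5) read 7.75, 120 and 0.24 in the combined group, and with L.J. it read 1.46 in replicate 2 and was listed at 0 in the others. Trypsin (Prss2) was at 19.0 in combined replicate 2 and listed at 0 in all L.J. libraries. Cela1, an elastase, read 14.8, 31.8 and 14.3 in the combined group and 4.23, 7.73 and 2.02 with L.J. Its means were 18.3 in control and 20.6 with busulfan. Of 10 adipocyte markers, 4 (Ucp1, Retn, Plin1 and Lep) were listed at 0 in all 6 libraries. Another 3 (Car3, Pck1 and Fabp4) were among the genes compared. The 10 markers summed to 1153, 2374 and 1388 FPKM with L.J. and to 2209, 2097 and 2649 in the combined group. The part of pancreatic RNA in other differences was not tested, and leaving out combined replicate 2 gave 2 genes higher and 0 lower.

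Whether busulfan acted differently with L.J. than without it was tested by the interaction of both treatments. No gene passed in limma (0 of 10786, with 705 or 6.54% at an unadjusted p under 0.05). The difference between the effect of busulfan with and without L.J. was 1.31 on the log2 scale for Ndrg1 (SE 0.20, adjusted p = 0.324), -1.04 for B3galt1 (SE 0.19, adjusted p = 0.709) and -6.00 for Sult3a1 (SE 1.26, adjusted p = 0.709). For Gstp3 it was -1.56 (SE 1.09, adjusted p = 0.713). Without L.J. replicate 2 the interaction passed for 299 genes.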

How the data were processed

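The authors deposited one table of FPKM for 12 liver libraries, rounded to 2 decimals. Per the submitters' processing notes, Bowtie 0.12.2 and mm10 were used, and the quantifier is not given in the sources used here. Without counts, depth is unknown and intervals or floors for counting error are not given. Gene IDs were matched to RefSeq GRCm38.p6 (20841 of 21004, 99.2%), which restored 26 symbols stored as dates.

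A gene was tested if 3 or more of the 12 libraries held 1 FPKM or more. From the deposited FPKM, log2(FPKM + 1) was fitted with 4 group means over all 12 libraries in limma 3.58.1 (R 4.3.3, eBayes with trend, 8 residual degrees of freedom), two-sided, with Benjamini-Hochberg adjustment over all genes and a threshold of 0.05. Fold changes of low genes are understated on this scale. The count-based tools had no counts to run on. The fit was run on simulated data with independent noise and the same spread per gene in all groups. The split within the L.J. group was not simulated, so that run does not cover it.

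The genes and the 55 gene lists were chosen with earlier results of these data known, so their direction is no independent evidence. Genes named are drawn from those past the threshold or the 5 with the smallest p, up to 6 members of each list by smallest p, and 9 fixed genes (Saa1, Saa2, Mup20, Cyp2d9, Sult3a1, Cyp7a1, Cdkn1a, Igf1, Angptl4). No gene passed in every fit without 1 library. Alternatives were other pseudocounts, filters, scalings, eBayes settings, library sets, weights and a replicate block. Genes named as cell type markers (Ngp, Elane, Prss2, Alb and those listed at 0) fall outside that rule and were chosen after their values were seen. Some members are not reported here by name. Promoters came from RefSeq and transcripts from GENCODE M21, compared with Biopython.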

Additional observations from a re-analysis of the deposited data

How the results depend on the processing

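Of 83 genes named with a test, 6 changed sign under at least 1 alternative, all of them with a main value that did not pass. Higher and lower genes past the threshold numbered 1 and 2 in the reported fit, 1 and 1 with a pseudocount of 0.1, 3 and 1 without a filter, 2 and 2 at a minimum of 5 FPKM, 1 and 0 with median scaling, quantile normalization or the Mup genes left out, 1 and 1 with robust eBayes, 0 and 2 in the 6 compared libraries alone (where Gstp3 passed, adjusted p = 0.00582, and none of the 3 reported genes did), and 604 and 1996 with library weights, whose estimation did not fully converge. Leaving out 1 library at a time gave 0 to 246 higher and 0 to 918 lower, and leaving out both L.J. replicates 1 and 3 gave 0 and 2. The interaction, at 0 genes, gave 1 with the Mup genes left out, 862 with library weights, 2 without both L.J. replicates 1 and 3, and 0 to 299 with 1 library left out. The cause of these differences was not tested.

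With the replicate block, 0 genes were higher and 1 lower (Sult3a1, adjusted p = 0.0139), and Ndrg1 and B3galt1 did not pass (adjusted p = 0.0713 for both). L.J. and combined libraries of the same number did not deviate together from their group means (correlations of -0.243, -0.227 and 0.0442 for numbers 1, 2 and 3). Libraries of unlike number ran from -0.266 to 0.376. Deviations from a group mean must sum to 0 within each group, so these values cannot decide whether the libraries were paired.

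Signs changed as follows. Without both L.J. replicates 1 and 3 the log2 fold change was 0.15 for Marco, -0.13 for Igf1, -0.01 for Slco1a1, -0.04 for Alb and 0.55 for Cyp7a1. With median scaling, quantile normalization and the Mup genes left out, Cyp7a1 was at 0.08, 0.06 and 0.07 and Angptl4 at 0.03, 0.06 and 0.03. With quantile normalization Alb was at -0.42. With 1 library left out, Alb ranged from -0.08 to 0.43, Igf1 ranged from -0.07 to 0.09, Angptl4 from -0.24 to 0.00 and Cyp7a1 from -0.34 to 0.46. The Mup share of all FPKM stayed higher in the combined group without any 1 library. Depth is unknown, so precision is limited by the 3 libraries per group.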

Other observations

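Immediate early genes, which stress and growth signals switch on within minutes, had a median log2 fold change of -0.48 over 22 members in the combined group against L.J. (-0.35 relative to all genes). It was -0.73 from L.J. replicates 1 and 3 and 0.31 from L.J. replicate 2, so its direction rested on the first pair. Gadd45b, a stress sensor, read 5.77, 1.1 and 5.79 FPKM with L.J. and 0.40, 0.59 and 1.46 in the combined group. Cyr61, a secreted matrix protein, read 4.35, 3.60 and 3.84 against 6.53, 4.91 and 5.15, without overlap, and did not pass (adjusted p = 0.324).

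Genes of gluconeogenesis, glycogen and insulin signalling had a median of -0.24 (-0.11 relative to all genes, -0.35 from L.J. replicates 1 and 3 and -0.06 from replicate 2). Of these, 19 of 25 read lower, 76.0% beside 74.9% of all genes. Slc37a4, the glucose-6-phosphate transporter, read 68.2, 50.2 and 71.4 with L.J. and 41.0, 46.9 and 44.4 in the combined group, and its groups did not overlap. The insulin receptor Insr read 18.5, 9.92 and 15.6 against 8.28, 9.96 and 11.3, and Gckr, which holds glucokinase in the nucleus, 75.7, 40.5 and 65.5 against 30.7, 46.9 and 39.0. Amino acid catabolism had a median of -0.16 (-0.03 relative to all genes), which was -0.32 from L.J. replicates 1 and 3 and turned to 0.13 from replicate 2. In that list 27 of 39 read lower, 69.2% beside 74.9% of all genes. Mat1a, which makes S-adenosylmethionine, read 1391, 387 and 1156 against 272, 479 and 310. Scarb1, the receptor for HDL, read 142, 67.2 and 127 against 55.3, 72.3 and 56.5, while Sc5d, of cholesterol synthesis, read 88.6, 202 and 126 against 179, 285 and 198. The part of L.J. replicates 1 and 3 in these values was not tested beyond leaving them out.

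Alas2, the erythroid form of the heme synthesis enzyme, read 13.4, 76.1 and 7.29 with L.J. and 101, 71.8 and 82.9 in the combined group, although the erythroid markers had a median of -0.42. Carbonic anhydrase Car3, a marker of fat and of male liver, read 426, 2020 and 365 against 1958, 1873 and 2401.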
